A study of Homo sapiens with 2 samples.

Results

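The 10 genes described here are the transcriptional co-activators YAP1 and WWTR1 (TAZ), the TEAD factors TEAD1 and TEAD3, the regulators LATS2, AMOTL2 and AJUBA, and the target genes CTGF, CYR61 and ANKRD1. They were chosen by gene symbol, as Hippo pathway effectors and targets known to follow cell density, and not by a rule on their values. Earlier results of these data were known when the choice was made. All 10 were found among the 18812 gene identifiers listed in both libraries. Total RNA was sequenced from A549, a long-established cell line from a human lung adenocarcinoma. One culture was stably transduced with ATOH8, the gene of a transcription factor of the basic helix-loop-helix class, from a retroviral vector, and the other with that vector alone. Each group had 1 library, so no difference below carries an error between replicates or a p-value. Sources used here do not give the promoter that drove ATOH8, whether the lines were clones or pools, or the density of the cultures at harvest.

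The Hippo pathway is a kinase cascade that restrains YAP and TAZ. When cells are crowded, LATS kinases phosphorylate YAP and TAZ and hold them in the cytoplasm. In sparse, spread cells the co-activators enter the nucleus, bind TEAD factors on DNA and raise genes such as CTGF, CYR61 and ANKRD1. LATS2 and AMOTL2 are themselves targets of YAP and TAZ and act back on them as brakes. Much of this control acts on the proteins, which were not measured here. The RNA of the targets was measured, but it is not a direct measure of the activity of the pathway.

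TEAD factors bind the letters CATTCC, read as GGAATG on the other strand, and the promoters of the targets show where these letters lie. The RefSeq promoter table (GRCh38.p14, 250 bases before to 50 after the start site) held entries for 8 of the 10 genes, all but TEAD1 and CYR61, and 11 entries in all. Both strands were searched, also for TGANTCA, a loose form of the AP-1 motif in which N is any base. Its other strand reads the same. The entries shown were taken from those with a match. CTGF, ANKRD1 and AMOTL2 are targets of TEAD, and YAP1 encodes its co-activator. Not shown are the entries of WWTR1, the other co-activator gene, and the other AMOTL2 entry, which held no match. The capitals mark each CATTCC or GGAATG.
CTGF promoter, chr6:131951323-131951622, minus strand: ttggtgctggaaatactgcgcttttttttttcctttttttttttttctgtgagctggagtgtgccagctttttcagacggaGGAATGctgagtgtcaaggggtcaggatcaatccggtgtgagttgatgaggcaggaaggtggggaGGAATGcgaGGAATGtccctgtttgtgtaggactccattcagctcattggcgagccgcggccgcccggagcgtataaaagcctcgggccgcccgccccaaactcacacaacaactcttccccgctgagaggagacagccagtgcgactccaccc
ANKRD1 promoter, chr10:90921038-90921337, minus strand: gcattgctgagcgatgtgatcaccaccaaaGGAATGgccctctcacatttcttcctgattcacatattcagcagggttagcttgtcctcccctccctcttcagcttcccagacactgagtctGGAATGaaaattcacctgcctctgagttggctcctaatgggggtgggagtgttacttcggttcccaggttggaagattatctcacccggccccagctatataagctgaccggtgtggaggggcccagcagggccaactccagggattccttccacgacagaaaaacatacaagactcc
AMOTL2 promoter, chr3:134374398-134374697, minus strand: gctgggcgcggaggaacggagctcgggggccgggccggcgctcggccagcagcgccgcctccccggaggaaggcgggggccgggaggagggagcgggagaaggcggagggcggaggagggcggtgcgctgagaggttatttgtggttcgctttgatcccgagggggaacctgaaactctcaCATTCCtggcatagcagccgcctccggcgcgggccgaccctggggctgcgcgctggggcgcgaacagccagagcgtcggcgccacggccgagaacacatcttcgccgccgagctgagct
YAP1 promoter, chr11:102110197-102110496, plus strand: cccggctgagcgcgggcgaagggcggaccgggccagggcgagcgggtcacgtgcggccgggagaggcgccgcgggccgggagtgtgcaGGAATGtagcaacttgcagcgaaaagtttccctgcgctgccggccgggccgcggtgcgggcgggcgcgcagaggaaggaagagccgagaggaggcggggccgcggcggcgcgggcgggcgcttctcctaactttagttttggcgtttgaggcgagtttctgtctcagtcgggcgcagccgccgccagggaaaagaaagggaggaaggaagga
The CTGF promoter held 3 matches, which began 169, 104 and 95 bases before the start site. The ANKRD1 promoter held 2, at 220 and 128 bases before it. It also held 1 match to the loose AP-1 form at 195 bases before the start, which overlapped neither. That match reads TGATTCA, with T at the free base. Of the 11 entries, 1 held the loose form, against 7.71% of the 35116 promoters of the whole table. AMOTL2 held 1 match in 1 of its 2 entries, 69 bases before the start, and YAP1 held 1, at 162 bases before the start. LATS2 and 1 of the 2 AJUBA entries each held 1 match, while the entries of WWTR1 and TEAD3 held none in this window. In all, 6 of the 11 entries held the motif, against 14.0% of the 35116 promoters of the whole table. Several of the 10 genes were chosen because they are known TEAD targets, so this share is a description, and a match is not shown to be a bound site.

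The level of each gene was taken as the authors' FPKM, fragments per kilobase of transcript scaled to library size, which adjusts for length and so allows levels of different genes to be set side by side. Differences are given as log2 folds of ATOH8 over vector on the log2(FPKM + 1) scale, which understates changes of low genes. Genes averaging 5 FPKM or more had a median log2 fold of -0.36, so the folds are given relative to that median gene unless stated otherwise. ATOH8 itself was listed at 182 FPKM in the ATOH8 library and 0.786 FPKM in the vector library, which matches the labels. The summed FPKM was 502502 in the ATOH8 library, against 540101 in the vector library, and the read depth is unknown. All 9 epithelial and A549 markers were listed in both libraries, with a summed level of 13257 FPKM in the ATOH8 library and 14347 FPKM in the vector library, although KRT19 was at 0.0700 FPKM in the ATOH8 library and 0.219 FPKM in the vector library. Of 7 fibroblast markers, 6 were listed in the ATOH8 library, summing to 0.800 FPKM, and 4 in the vector library, summing to 0.756 FPKM. Of 5 endothelial markers, 4 were listed in the ATOH8 library, summing to 0.0820 FPKM, and 0 in the vector library. Of 5 immune markers, 4 were listed in the ATOH8 library, summing to 16.8 FPKM, and 3 in the vector library, summing to 2.90 FPKM. CD68, which non-immune cells also express in lysosomes, made up most of both sums, at 15.4 FPKM in the ATOH8 library and 2.14 FPKM in the vector library, and CD3E was unlisted in both.

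None of the 10 genes was 2-fold apart between the libraries relative to the median gene. The genes higher by 2-fold or more in the ATOH8 library numbered 0 of 10, against 12.8% of the 12342 tested genes, which averaged 1 FPKM or more, and those lower by 2-fold or more numbered 0 of 10, against 9.46%. In either direction, 22.3% of all tested genes passed the same rule. The median relative log2 fold of the 10 genes was 0.06 and that of all tested genes was also 0.06. The genes nevertheless spread from -0.45 for TEAD1 to 0.78 for TEAD3, and 8 of the 10 lay within the interquartile range of all tested genes, which ran from -0.47 to 0.61. The 2 outside it, TEAD3 and CTGF, were both above it. All 10 genes passed the filter of an average of 1 FPKM, and each had values in both libraries. In such bulk RNA, fewer cells expressing a gene and less of its RNA per cell cannot be told apart.

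**Figure D1:**
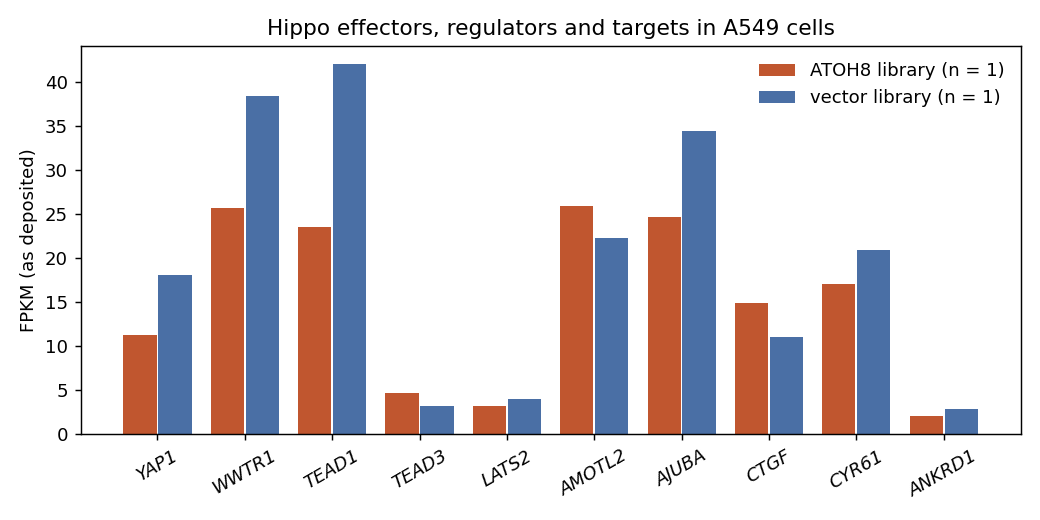
FPKM of the 10 genes, as deposited, in the ATOH8 library (left bar of each pair) and the vector library (right bar), 1 library each and so no error bars. TEAD1 shows the largest gap, at 23.5 FPKM in the ATOH8 library and 41.95 FPKM in the vector library, and CTGF, AMOTL2 and TEAD3 are the 3 genes whose left bar is the taller.

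The co-activators were moderately to highly expressed and lower in the ATOH8 library as deposited. YAP1 (ENSG00000137693, chromosome 11, 102110461 to 102233423, plus strand of GRCh38) had a level of 11.3 FPKM in the ATOH8 library and 18.1 FPKM in the vector library. WWTR1 (ENSG00000018408, chromosome 3, 149517235 to 149736714, minus strand), which encodes TAZ, was at 25.7 FPKM in the ATOH8 library and 38.3 FPKM in the vector library. Relative to the median gene these were log2 folds of -0.28 for YAP1 and -0.20 for WWTR1, and that of WWTR1 turned positive, at 0.25, once the GC content of the transcript was allowed for. In FPKM the balance between the paralogs was nearly the same in both libraries. WWTR1 made up 69.5% of the summed YAP1 and WWTR1 FPKM in the ATOH8 library, against 67.9% in the vector library, a share that no scaling of a library can move. A trend with GC content can move that share. After the GC correction the folds lay farther apart, at -0.05 for YAP1 and 0.25 for WWTR1.

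The TEAD factors, which carry the co-activators to DNA, differed in opposite directions. TEAD1 (ENSG00000187079, chromosome 11, 12674591 to 12944483, plus strand) was at 23.5 FPKM in the ATOH8 library and 41.95 FPKM in the vector library, the largest difference among the 10 genes in FPKM, with a relative log2 fold of -0.45. TEAD3 (ENSG00000007866, chromosome 6, 35473597 to 35497076, minus strand) was at 4.70 FPKM in the ATOH8 library and 3.24 FPKM in the vector library, with a relative log2 fold of 0.78. Their 2 paralogs split in the same way. TEAD2 was at 12.1 FPKM in the ATOH8 library and 8.49 FPKM in the vector library (0.83), and TEAD4 at 11.2 FPKM in the ATOH8 library and 18.3 FPKM in the vector library (-0.30). TEAD1 remained the most abundant of the 4 in both libraries, with 45.7% of their summed FPKM in the ATOH8 library, against 58.3% in the vector library. TEAD2 held 23.5% in the ATOH8 library, against 11.8% in the vector library, and TEAD3 held 9.12% in the ATOH8 library, against 4.51% in the vector library. TEAD1 transcripts outnumbered those of TEAD3 by 5.01 to 1 per length in the ATOH8 library and by 12.9 to 1 in the vector library. The GC content of the longest transcript was 41.3% for TEAD1, 59.8% for TEAD3, 58.4% for TEAD2 and 60.4% for TEAD4. After the GC correction TEAD1 stood at -0.03, TEAD3 at 0.25 and TEAD2 at 0.33, while TEAD4 stood at -0.85.

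**Figure D2:**
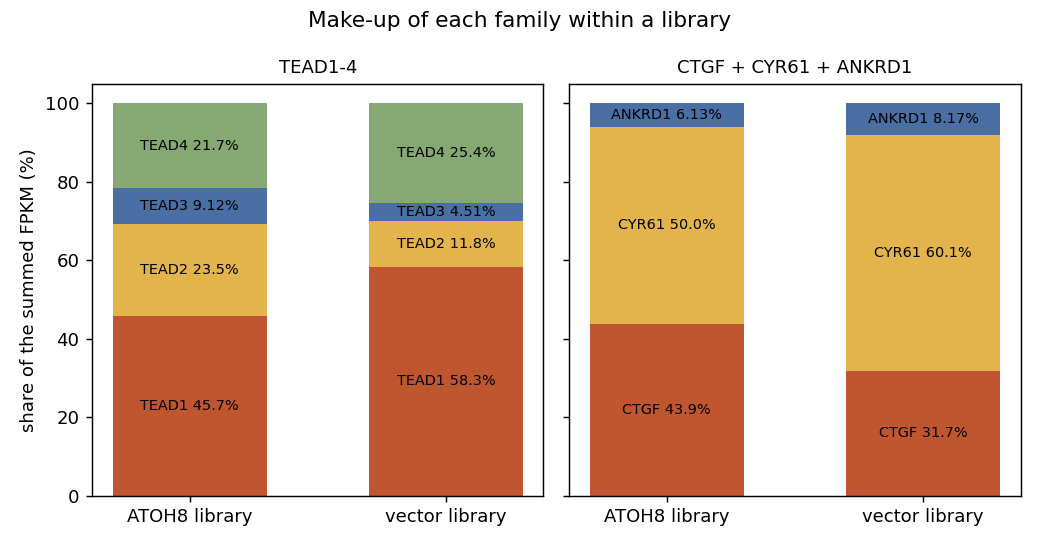
Share of the summed FPKM, in percent, of each TEAD gene among TEAD1 to TEAD4 (left panel) and of each target gene among CTGF, CYR61 and ANKRD1 (right panel), in the ATOH8 and vector libraries. TEAD1 has 45.7% in the ATOH8 library, against 58.3% in the vector library, and CTGF has 43.9% in the ATOH8 library, against 31.7% in the vector library.

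The classical targets were all above 0 relative to the median gene, CYR61 by 0.07 and ANKRD1 by 0.04, but as deposited and after the GC correction they had no common sign. CTGF (ENSG00000118523, chromosome 6, 131948176 to 131951373, minus strand), which encodes a secreted matricellular protein also called CCN2, was at 14.9 FPKM in the ATOH8 library and 11.05 FPKM in the vector library. Its relative log2 fold was 0.76, and it stayed positive in the 9 alternatives that gave it a value, with a range between 0.40 and 0.81. The changes of filter and the highest row of a shared symbol could not move the fold, which was 0.76 under each. CYR61 (ENSG00000142871, chromosome 1, 85580761 to 85583962, plus strand), its matricellular paralog CCN1, was at 17.0 FPKM in the ATOH8 library and 20.9 FPKM in the vector library. Its relative fold of 0.07 became -0.13 after the GC correction and -0.29 as deposited. ANKRD1 (ENSG00000148677, chromosome 10, 90912096 to 90921276, minus strand), which encodes an ankyrin repeat protein of muscle and stressed cells, was the lowest of the 10, at 2.08 FPKM in the ATOH8 library and 2.84 FPKM in the vector library. Its relative fold of 0.04 ranged from -0.32 as deposited to 0.29 after the GC correction. The 3 targets summed to 33.97 FPKM in the ATOH8 library and 34.8 FPKM in the vector library. Within that sum CTGF took 43.9% in the ATOH8 library, against 31.7% in the vector library, and CYR61 took 50.01% in the ATOH8 library, against 60.1% in the vector library. The ratio of CTGF to CYR61 was thus 0.877 in the ATOH8 library, against 0.528 in the vector library.

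The 3 regulators were close to the median gene or above it. LATS2 (ENSG00000150457, chromosome 13, 20973032 to 21061547, minus strand), a kinase that phosphorylates YAP and TAZ, was at 3.25 FPKM in the ATOH8 library and 4.03 FPKM in the vector library. Its relative log2 fold of 0.12 was -0.24 as deposited and -0.15 after the GC correction. Its paralog LATS1 was at 1.39 FPKM in the ATOH8 library and 2.76 FPKM in the vector library (-0.30). In FPKM, LATS2 made up 70.1% of the sum of both kinases in the ATOH8 library, against 59.3% in the vector library. The order of the 2 folds turned with the GC correction, which put LATS1, with a transcript of 39.7% GC against 51.8% for LATS2, at 0.24. AMOTL2 (ENSG00000114019, chromosome 3, 134355874 to 134375479, minus strand), an angiomotin family protein that binds YAP, was at 25.8 FPKM in the ATOH8 library and 22.3 FPKM in the vector library (0.57, and 0.12 after the GC correction). AJUBA (ENSG00000129474, chromosome 14, 22971174 to 22982642, minus strand), a LIM domain protein that restrains LATS kinases at junctions, was at 24.6 FPKM in the ATOH8 library and 34.4 FPKM in the vector library (-0.11). AJUBA had the lowest GC-corrected value of the 10, at -0.41. The file's locus for AJUBA also covered 3 genes on the same strand, among them the protein-coding HAUS4 and AL132780.3. The authors' estimate could thus split reads between AJUBA and these genes. The loci of TEAD3, CYR61 and ANKRD1 covered no other gene of GENCODE 29. Those of YAP1, WWTR1, TEAD1, LATS2 and CTGF covered an antisense gene, as did that of AJUBA. The file's locus for CTGF ran to 132077393, past the end of the gene at 131951373. That for AMOTL2 began at 134351851, before the gene itself at 134355874. The loci of WWTR1, TEAD1 and LATS2 each covered 1 gene on the same strand as well. The locus of AMOTL2 covered a pseudogene and a miRNA gene on the same strand. Whether reads were counted by strand is not stated in the sources used here.

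In order of level, AMOTL2, WWTR1, AJUBA and TEAD1 led in the ATOH8 library, between 23.5 and 25.8 FPKM. CYR61, CTGF and YAP1 followed at 17.0, 14.9 and 11.3 FPKM, and TEAD3, LATS2 and ANKRD1 came last. In the vector library TEAD1 led at 41.95 FPKM, before WWTR1, AJUBA, AMOTL2, CYR61, YAP1 and CTGF, and LATS2, TEAD3 and ANKRD1 came last. With 1 library per group there is no spread against which to place neighbours in either order. WWTR1 exceeded the level of 81.0% of the tested genes in the ATOH8 library, against 83.9% in the vector library, whereas ANKRD1 exceeded 16.6% in the ATOH8 library, against 19.3% in the vector library.

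**Figure D3:**
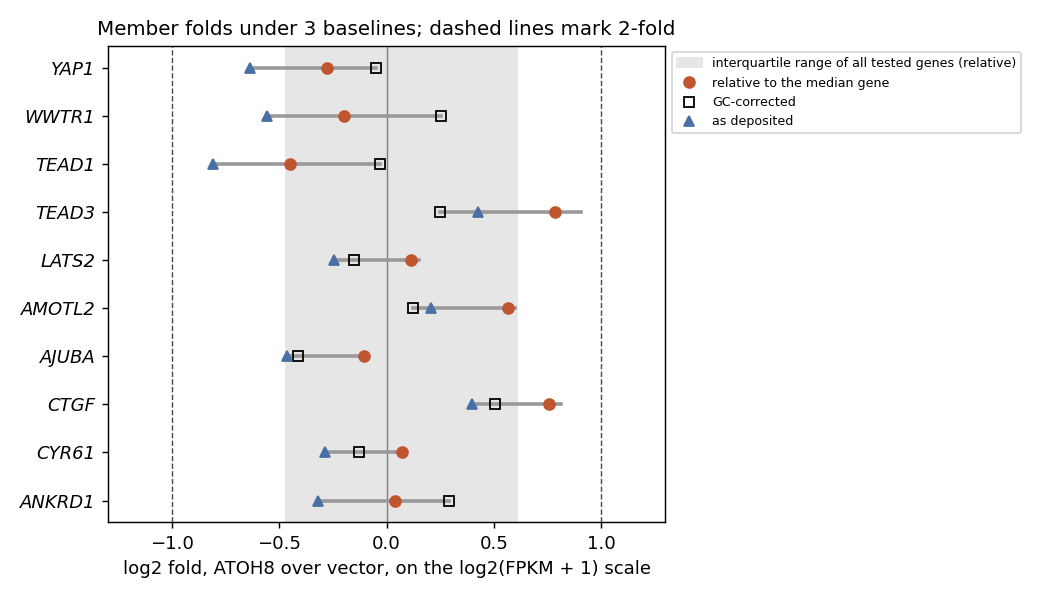
Log2 fold of ATOH8 over vector for each of the 10 genes, relative to the median gene (circles), after GC correction (squares) and as deposited (triangles). Grey lines span the lowest and highest value over all settings, the shaded band is the interquartile range of all tested genes, and no line reaches the dashed 2-fold marks, the farthest being TEAD3 at 0.91.

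The direction of several of these folds rested on the baseline. TEAD3, AMOTL2 and CTGF were above 0 under every setting that gave them a value, and YAP1, TEAD1 and AJUBA were below 0 under every one, while WWTR1, LATS2, CYR61 and ANKRD1 had either sign. After the GC correction TEAD1 and YAP1 were barely below 0, at -0.03 and -0.05. That correction is centred on all tested genes, whose median on the main scale was 0.06. The changes of filter and the highest row of a shared symbol left every fold they kept unchanged, so these settings could not turn a sign. Relative to the median gene 6 of the 10 folds were positive, beside 53% of all tested genes, and 4 were negative. As deposited, 3 were positive and 7 negative, and 0 of 10 were 2-fold apart, beside 25.2% of all tested genes. After the GC correction 5 were positive and 5 negative, between -0.41 and 0.50, and 0 of 10 were 2-fold apart, beside 14.3% of all tested genes. The authors' deposited table of differential expression, which lists 2747 genes with an absolute log2 ratio of at least 1.00, held 0 of the 10, against 19.9% of the tested genes. It comes from the same 2 libraries. Without a pseudocount the largest absolute log2 ratio among the 10 genes was 0.83, so none could be in it.

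Across the 10 genes the relative fold followed the GC content of the transcript, as it did across all genes. The Spearman correlation over the 10 genes was 0.76 and the Pearson correlation 0.81, and over the 12313 tested genes with a known transcript they were 0.55 and 0.51. These are descriptions, since all points come from the same 2 libraries. The 4 genes with the lowest GC content, WWTR1 (40.9%), TEAD1 (41.3%), ANKRD1 (43.3%) and YAP1 (43.5%), include the 3 lowest folds. The highest fold belongs to TEAD3, which has the highest GC content, and AMOTL2, at 56.7%, is the third highest. Among the 2117 genes within 2 percentage points of the GC content of TEAD1, the median relative fold was -0.41, close to the -0.45 of TEAD1 itself. For YAP1 the 2063 such genes had a median of -0.25, against -0.28 for YAP1. For TEAD3 the 1438 such genes had a median of 0.54, against 0.78 for TEAD3. CTGF lay farthest above its neighbours, with a fold of 0.76 against a median of 0.27 over 1565 genes, 77.4% of which were below it. AJUBA lay farthest below, with 24.9% of its 1583 neighbours below it. The part of GC content in these differences was not tested.

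**Figure D4:**
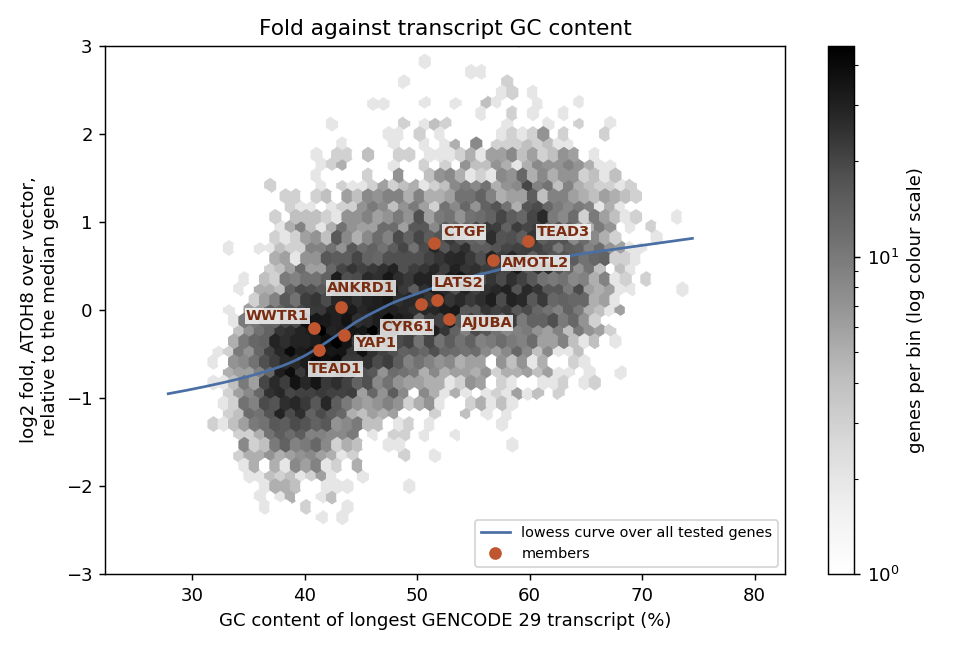
Relative log2 fold of ATOH8 over vector against the GC content, in percent, of the longest transcript, with all tested genes as shaded bins, the lowess curve through them and the 10 genes as circles; the vertical axis ends at 3 in each direction and leaves out genes beyond it. The circles rise with the curve, and CTGF, at 51.5% GC and a fold of 0.76, sits farthest above it.

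The wider pathway was described with 5 gene lists, which overlap. AMOT, WTIP, TEAD2 and TEAD4, among others, count both as binding partners and as family relatives, so the lists are not separate sets of genes. Of 20 genes of the Hippo kinase cassette and its regulators, 0 stood 2-fold or more above and 2 stood 2-fold or more below the median gene, beside 12.8% and 9.46% of all tested genes, with a median relative log2 fold of -0.06. The 2 were STRN, a striatin that holds a phosphatase against the Hippo kinases (1.56 FPKM in the ATOH8 library and 7.87 FPKM in the vector library, -1.44), and MOB1A, the LATS co-activator (19.0 FPKM with ATOH8 and 54.1 FPKM with vector, -1.10). The next were STRN3, another striatin (-0.87), TAOK1, an upstream kinase (-0.79), and FRMD6, a FERM domain protein (-0.70). These 5 have GC contents between 37.3% and 40.7%. After the GC correction 0 of the 20 were 2-fold apart, beside 14.3% of all tested genes, with STRN at -0.79 and MOB1A at -0.44. STRN, FRMD6 and WWC2, 3 of the 20, carry a down mark in the authors' deposited table, and 0 an up mark, beside 19.9% of all tested genes with either mark. WWC2 was named for its place in that table.

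Of 18 genes that encode YAP, TAZ, TEAD factors and their binding partners, 6 of them among the 10, 1 was at least 2-fold higher and 0 lower (median 0.16), beside 12.8% and 9.46% of all tested genes. The 1 was AMOT, the angiomotin that holds YAP at junctions, at 1.83 FPKM in the ATOH8 library and 0.236 FPKM in the vector library (1.55, and 1.56 after the GC correction). It was marked up in the authors' deposited table. AMOTL2 was nevertheless the main angiomotin transcript, with 81.2% of the summed FPKM of the family in the ATOH8 library, against 79.7% in the vector library. TP53BP2, a YAP-binding protein, stood at -0.73, the LIM protein gene WTIP at 0.56 and VGLL3, a TEAD cofactor, at -0.39. Of the 18, the authors' deposited table marks 1 up, AMOT, and 1 down, TP53BP2, beside 19.9% of all tested genes with either mark. VGLL4, which competes with YAP for TEAD, was at 6.34 FPKM in the ATOH8 library and 7.34 FPKM in the vector library (0.17).

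A list of 22 widely used YAP and TAZ targets had 21 tested genes, 5 of them among the 10. Of the 21, 4 were 2-fold or more above the median gene and 0 as far below it, beside 12.8% and 9.46% of all tested genes. The median was 0.34, against 0.06 over all tested genes. The 4 were IGFBP3, an IGF-binding protein (299 FPKM in the ATOH8 library and 77.2 FPKM in the vector library, 2.30), the matrix protein gene CCDC80 (31.1 FPKM with ATOH8 and 11.99 FPKM with vector, 1.67), the receptor tyrosine kinase gene AXL (45.4 FPKM with ATOH8 and 22.7 FPKM with vector, 1.33) and the TGF-beta ligand gene TGFB2 (12.7 FPKM with ATOH8 and 7.67 FPKM with vector, 1.02). GADD45A, a growth arrest gene, stood just under the 2-fold mark at 0.99. The 5 that belong to the 10 had folds between 0.04 and 0.76. As deposited, the median of the list was -0.02 and 2 genes, IGFBP3 and CCDC80, were at least 2-fold higher, the same 2 that the authors' deposited table marks up. On that scale 770 of the 12342 tested genes were at least 2-fold higher. Of all tested genes, 19.9% carry a mark of either direction in the authors' deposited table. After the GC correction the median was 0.29 and 4 were again at least 2-fold higher, but AXL, at 0.98, had left them and RBMS3, at 1.03, had joined. FJX1 then stood below the lower mark at -1.28, and it and RBMS3 were named after their values were seen.

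**Figure D5:**
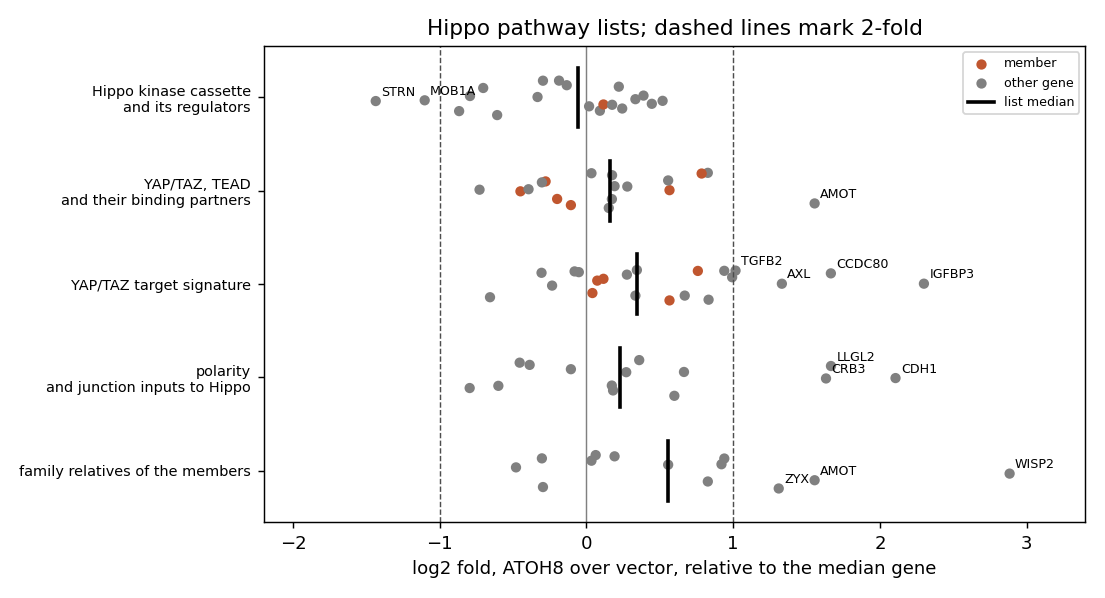
Relative log2 fold of ATOH8 over vector for each tested gene of the 5 lists (rows), with the 10 genes in orange, other genes in grey and the list median as a black bar; genes at least 2-fold apart are named. All orange points lie between the dashed 2-fold marks, while WISP2 reaches 2.88 and STRN -1.44.

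Of 14 tested genes of the polarity and junction complexes that feed into the pathway, 3 stood 2-fold or more above the median gene and 0 as far below (median 0.23), beside 12.8% and 9.46% of all tested genes. These were CDH1, which encodes E-cadherin (54.1 FPKM in the ATOH8 library and 15.4 FPKM in the vector library, 2.11), LLGL2, a Scribble complex gene (46.7 FPKM with ATOH8 and 18.3 FPKM with vector, 1.67), and CRB3, a Crumbs gene (6.22 FPKM with ATOH8 and 1.99 FPKM with vector, 1.63). PARD3 stood at 0.66 and DLG1 at -0.80. Of the 14, the authors' deposited table marks these 3 up and DLG1 down, beside 19.9% of all tested genes with either mark. Among 13 tested family relatives of the 10, 3 passed the 2-fold mark upwards and 0 downwards, beside 12.8% and 9.46% of all tested genes (median 0.56, and 0.24 after the GC correction). WISP2, a relative of CTGF and CYR61 also called CCN5, stood highest, at 15.9 FPKM in the ATOH8 library and 1.93 FPKM in the vector library (2.88, and 2.54 after the GC correction). It made up 33.2% of the summed FPKM of CTGF, CYR61 and WISP2 in the ATOH8 library, against 5.69% in the vector library. The other two were AMOT and the LIM protein gene ZYX (51.2 FPKM in the ATOH8 library and 26.0 FPKM in the vector library, 1.31). FBLIM1, at 0.94, and LPP, at 0.92, both LIM protein genes, followed below the 2-fold mark. After the GC correction 3 again stood above the mark, but ZYX, at 0.67, was no longer among them and LPP, at 1.47, was, while ANKRD2, named after its values were seen, stood below the lower mark at -1.05. Of 12313 tested genes with that correction, 1026 stood above the upper mark and 733 below the lower. No list was tested against other genes, and with 1 library per group a difference between the lists and the 10 genes has no test.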

How the data were processed

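RNA was measured in 2 libraries of A549 cells, 1 transduced with ATOH8 and 1 with the vector, grouped by the treatment label. FPKM, 1 table for each library, were deposited by the authors, per the file headers. The submitters' processing notes name CASAVA, HISAT2, Cufflinks 2.2.1 and hg38 (GRCh38), without their roles. Sources used here do not give the annotation release or the depth. A table of their own comparison, also deposited, holds other values: log2 ratios with p-values and q-values. Its p-values compare 2 libraries, not conditions, and are not printed. All 2450 of its finite log2 ratios that belong to tested genes have the sign of ATOH8 over vector. Its 2 further FPKM columns have names found in no label and were left out.

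Both FPKM tables were merged on the identifier, and values under the same symbol were added (18786 symbols). Log2 folds used a pseudocount of 1, genes averaging 1 FPKM or more were tested, and the median log2 fold of the 8249 genes averaging 5 FPKM or more was subtracted. For the GC correction, a lowess curve (span 0.3, statsmodels 0.14.6) was subtracted, fitted on the GC content of the longest GENCODE 29 transcript, known for 99.8% of tested genes, and centred the residuals on their median. The calculation was tested on simulated data. One marker of the immune list is not reported here. No test was run between groups; a rule of 2-fold was used. The 10 genes and the 5 lists were chosen with earlier results of these data known. Named were the 10 genes, the 5 other genes of each list with the largest absolute relative fold, TEAD2, TEAD4, LATS1 and VGLL4. Outside this rule, WWC2 was named for its mark in the authors' deposited table. FJX1, RBMS3 and ANKRD2 were named after their values were seen. Promoters are RefSeq's (GRCh38.p14), matched by symbol (CTGF as CCN2). The alternatives used pseudocounts of 0.1 and 5, no filter, a filter at 5 FPKM, no centring, TPM, upper quartile scaling, the GC correction, the highest row of a shared symbol and the authors' table.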

Additional observations from a re-analysis of the deposited data

How the results depend on the processing

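The count of the 10 genes at least 2-fold apart was 0 in each direction under every alternative run. The changes of filter and the highest row of a shared symbol cannot move a fold of these genes, so those alternatives could not raise the count. Nor could the authors' deposited table, which comes from the same 2 libraries and holds only absolute log2 ratios of at least 1.00. Without a pseudocount the largest absolute log2 ratio among the 10 genes was 0.83. TEAD3, LATS2 and ANKRD1 gave no value with a filter at 5 FPKM. The sign of 4 genes changed. ANKRD1 stood at -0.046 with a pseudocount of 0.1, -0.32 as deposited, -0.012 with TPM and -0.046 with upper quartile scaling. CYR61 stood at -0.29 as deposited and -0.13 after the GC correction, LATS2 at -0.24 and -0.15 in the same order, and WWTR1 at 0.25 after the GC correction. The median of the kinase list was 0.026 with a pseudocount of 5, 0.018 with a filter at 5 FPKM and 0.013 after the GC correction. As deposited, the medians of the target, binding partner and polarity lists were -0.015, -0.20 and -0.13. Over all genes, those at least 2-fold higher numbered 1579 in the main setting and 1972 with a pseudocount of 0.1. They numbered 636 with a pseudocount of 5, 947 with a filter at 5 FPKM and 770 as deposited. After the GC correction there were 1026, and the authors' deposited table held 827. Those at least 2-fold lower numbered 1168 in the main setting, 1670 with a pseudocount of 0.1 and 524 with a pseudocount of 5. There were 972 with a filter at 5 FPKM, 2340 as deposited, 733 after the GC correction and 1920 in the authors' deposited table. The counts are out of 12342 tested genes, but 8249 with the filter at 5 FPKM and 12313 after the GC correction. The authors' deposited table lists 2747 genes. Of the target list, 2 were at least 2-fold higher as deposited and 2 in the authors' deposited table, and 1 was at least 2-fold lower as deposited and 1 after the GC correction. Of the binding partners, 0 were at least 2-fold higher with a pseudocount of 5 or a filter at 5 FPKM, and 1 was at least 2-fold lower as deposited and in the authors' deposited table. Of the kinase list, 1 was at least 2-fold lower with a pseudocount of 5 and with a filter at 5 FPKM, 5 as deposited and 0 after the GC correction. Of the family relatives, 5 were at least 2-fold higher with a pseudocount of 0.1 and 1 was at least 2-fold lower after the GC correction. Of the polarity list, 1 was at least 2-fold lower as deposited and in the authors' deposited table. Beyond the construction of each alternative, the cause was not tested. No list median was taken from the authors' deposited table, which lists only genes past its own thresholds.

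No paired analysis was possible because each group had 1 library and no test was run. Without replicates or read depth, neither biological spread nor counting error can be attached to any value, and differences of the size seen among the 10 genes cannot be told apart from either.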
